A study of Mus musculus with 4 samples.

Results

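The homeobox genes Otx1, Otx2, Emx1, Emx2 and Lmx1a were examined in mouse otocysts in which Tbx2 and Tbx3, a pair of genes for T-box transcription factors, had been targeted for deletion. They were taken as all 5 probes, 1 for each gene, whose gene name on the array was one of these 5 symbols, out of 39429 probes that are not controls. Otocysts, the epithelial vesicles that form the inner ear, had been dissected from NMRI embryos at E10.5. The mutant embryos (Tbx2/3cDKO) carried Pax2-cre, a transgene whose cre is under Pax2 control and acts in the otic region, and were Tbx2(fl/fl) and Tbx3(fl/fl), so that the floxed alleles of both genes recombine there. The control embryos were labelled Tbx2(fl/?);Tbx3(fl/?), with no cre named and with the second allele of each gene not given, so a control may itself have carried 1 or 2 floxed copies. RNA of 1 mutant and 1 control was hybridised with 2 dyes to each of 4 arrays, replicates 1 and 2 from females and replicates 3 and 4 from males. The mutant was the red channel on replicates 1 and 3 and the green channel on replicates 2 and 4. Nothing in the labels tells whether each sample was 1 embryo or a pool, or whether samples were independent dissections. Every p-value therefore rests on these 4 pairs, and the spread among them may be technical.

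Otx1 and Otx2 are the mouse relatives of the fly gene orthodenticle and encode bicoid-type homeodomain proteins. Both are known for patterning the forebrain and midbrain, and in the ear they mark ventral and lateral parts of the otocyst that give rise to the cochlear duct, the saccule and the lateral canal, where Otx1 is required. Emx1 and Emx2 are relatives of the fly gene empty spiracles, known from the cerebral cortex, and Emx2 also sets the orientation of hair bundles in the vestibular maculae. Lmx1a encodes a LIM homeodomain protein that is expressed broadly in the early otic epithelium, is required to separate sensory from non-sensory territory, and also defines the roof plate of the neural tube.

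The change in each gene is given as the log2 ratio of mutant over control on the same array, turned to that direction by the dye labels, so that values below 0 mean less RNA in the mutant. A probe was called when the adjusted p of limma's linear model, with a dye term and Benjamini-Hochberg adjustment over all 23185 probes tested, was under 0.05. That model draws each probe's variance partly from all probes, so its p-values do not rest on the spread of 4 ratios alone. On each array 58.8% to 61.7% of spots stood well above background, and having only 4 arrays limits the precision. Tbx3 had log2 ratios of -3.38, -3.48, -3.61 and -3.25 on replicates 1 to 4, a called fall. Tbx2 averaged 0.06 ± 0.23 and Pax2, whose promoter drives the cre, averaged -0.09 ± 0.17 (SD, n = 4 for both), neither of them called. Where the Tbx2 and Tbx3 probes lie relative to the deleted parts of the genes is unknown here.

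The 5 genes moved in different directions. Otx2 and Otx1 fell most, to 22.1% and 30.7% of the control, Lmx1a fell to 69.6%, Emx1 rose to 223%, and Emx2 was not called, at 108%. Thus 3 of the 5 were called lower and 1 was called higher, where 9.7% of all probes tested were called lower, 12.4% higher and 22.1% in either direction. With 1 probe per gene, those shares were 9.81%, 13.1% and 23.0%. In both genotypes, all 5 probes passed the scanner software's test of being well above background on every array, and each gene rests on 1 probe printed once.

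**Figure D1:**
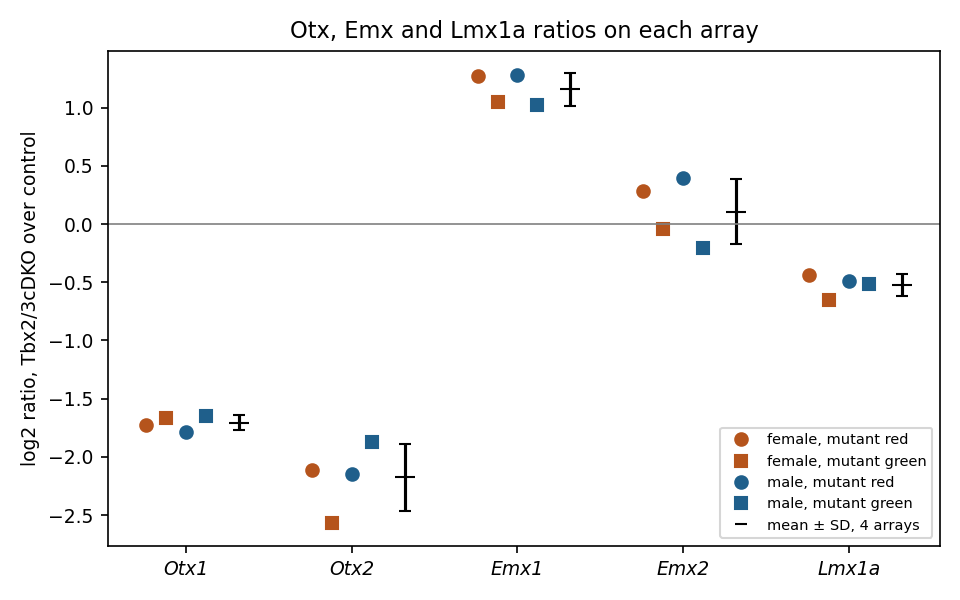
Log2 ratio of Tbx2/3cDKO over control (y axis) for the 5 genes (x axis). Each point is 1 array, coloured by sex and shaped by the dye of the mutant RNA, and the bar beside the points is the mean ± SD of 4 arrays. The Otx1, Otx2 and Lmx1a points all lie below 0 and the Emx1 points all lie above 1, whereas Emx2 lies above 0 where the mutant was red and below 0 where it was green.

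Otx1 was lower on every array. Its probe, A_52_P330488, lies at chr11:21895767-21895826 on the minus strand of mm9. The channel levels, log2 intensities after normalization, were 9.34, 9.10, 8.85 and 9.16 in the 4 controls and 7.62, 7.43, 7.06 and 7.51 in the 4 mutants, replicates 1 to 4 in order. The highest mutant stood 1 log2 unit or more below the lowest control, and the groups did not overlap. The log2 ratios were -1.72, -1.66, -1.78 and -1.65, a mean of -1.71 ± 0.06 (SD, n = 4), which is 3.26-fold lower (limma adjusted p = 7.04e-06, SE 0.05). With this processing it had the smallest SD between arrays of the 5 genes, and it stood at rank 27 of 2248 probes called lower, ordered by log2 ratio. The spot was dim in the mutants, with 76.5 to 149 intensity units over local background against 335 to 587 in the controls. With the scanner software's own ratios, which add no offset to the signals, the log2 ratio was -2.45 ± 0.14 (SD, n = 4), a 5.45-fold fall. In those ratios the smallest SD was that of Lmx1a, 0.07, so the order of the SDs depended on the processing.

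Otx2 was lower on every array too. The probe A_55_P1978571 lies at chr14:49277855-49277914 on the minus strand of mm9. Control levels were close together at 12.11, 12.20, 12.32 and 12.27. The mutant levels were 9.99, 9.63, 10.17 and 10.39, all at least 1 log2 unit below every control and more spread than the controls, with an SD of 0.32 against 0.09. The log2 ratios of -2.12, -2.57, -2.15 and -1.87 averaged -2.18 ± 0.29 (SD, n = 4), or 4.52-fold lower (limma adjusted p = 3.55e-05, SE 0.11), at rank 9 of the probes called lower. The deepest and the shallowest fall were on replicates 2 and 4, the arrays on which the mutant was green.

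Whether Otx2 fell more than Otx1 depended on the processing. Otx2 minus Otx1 was -0.39, -0.91, -0.36 and -0.22 on replicates 1 to 4, a mean of -0.47 ± 0.30 (SD, n = 4) and below 0 on 4 of 4 arrays. A two-sided exact sign-flip permutation test gave p = 0.125, the smallest it can give with 4 arrays. With the scanner software's ratios the mean turned to 0.16 ± 0.35 and only 1 of 4 arrays was below 0 (two-sided exact sign-flip permutation p = 0.375). The order of the 2 falls is therefore not settled, while each fall itself was called under both.

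A further probe of the Otx2 locus, outside the gene name rule and picked after its values were seen, also fell. The array design names it by an Ensembl transcript of Otx2 and places it at chr14:49284952-49285011 on the minus strand of mm9. The ratios were -0.32, -0.27, -0.44 and -0.31, a mean of -0.34 ± 0.07 (SD, n = 4; limma adjusted p = 0.00431). This spot was dim, with mutant levels of 6.98 to 7.18 and control levels of 7.28 to 7.49, which did not overlap. The probe of the antisense gene Otx2os1 was well above background on 0 of the 4 arrays in either genotype.

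**Figure D2:**
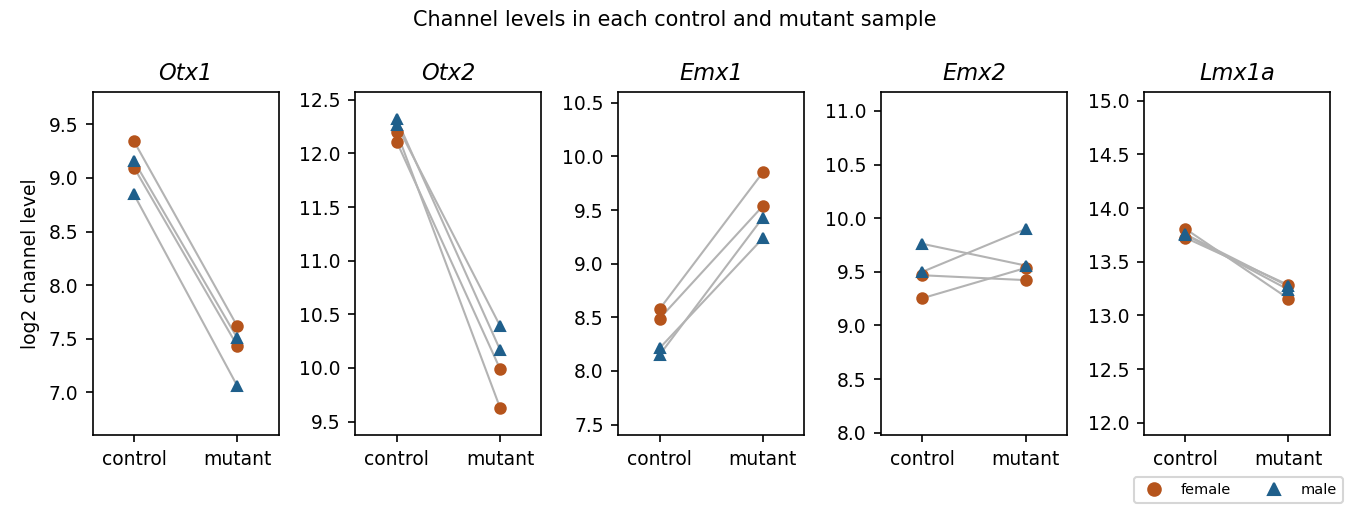
Channel level of each gene (y axis, log2 intensity after normalization) in control and mutant samples (x axis), with a line joining the 2 samples of an array and the symbol giving the sex. Every panel spans the same range but starts at its own level, since levels of different probes cannot be compared. Lines fall for Otx1, Otx2 and Lmx1a, rise for Emx1 and cross for Emx2.

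Emx1 went the other way. The probe A_55_P2140963 lies at chr6:85154062-85154121 on the plus strand of mm9. Levels in the controls were 8.58, 8.49, 8.15 and 8.21, and those in the mutants were 9.85, 9.54, 9.43 and 9.24. All mutants were above all controls. The log2 ratios were 1.27, 1.05, 1.28 and 1.02, with a mean of 1.16 ± 0.14 (SD, n = 4), a 2.23-fold rise (limma adjusted p = 2.27e-05, SE 0.05) at rank 136 of 2872 probes called higher, ordered from the top. The 2 arrays with the mutant in red averaged 1.28 and those with the mutant in green 1.04, so the dye moved the value by less than the change itself.

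Emx2 was not called, and its sign followed the dye. Its probe, A_52_P455251, lies at chr19:59539142-59539201 on the plus strand of mm9. Control levels were 9.25, 9.47, 9.50 and 9.76 and mutant levels were 9.54, 9.42, 9.90 and 9.56, so the genotypes overlapped. The ratios were 0.28 and 0.40 with the mutant in red and -0.05 and -0.20 with the mutant in green. Their mean was 0.11 ± 0.28 (SD, n = 4; limma adjusted p = 0.231). With the dye term removing that split, the 95% confidence interval of the genotype effect ran from -0.03 to 0.24. Both probes of its antisense gene Emx2os were well above background on 0 arrays.

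The Emx paralogs thus differed on every array. Emx1 minus Emx2 was 0.99, 1.10, 0.88 and 1.23, a mean of 1.05 ± 0.15 (SD, n = 4) and above 0 on 4 of 4 arrays (two-sided exact sign-flip permutation p = 0.125, the smallest possible). The scanner software's ratios gave 1.30 ± 0.17, above 0 on 4 of 4 arrays as well (two-sided exact sign-flip permutation p = 0.125).

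Lmx1a had a smaller and even fall. The probe A_55_P2146314 lies at chr1:169778804-169778863 on the plus strand of mm9. Levels were 13.72, 13.81, 13.76 and 13.75 in the controls and 13.28, 13.16, 13.27 and 13.24 in the mutants. Both sets were tight, with SDs of 0.03 and 0.06, and they did not overlap. The log2 ratios of -0.44, -0.65, -0.49 and -0.51 averaged -0.52 ± 0.09 (SD, n = 4), or 1.44-fold lower (limma adjusted p = 0.000674, SE 0.05). The paralog Lmx1b had 2 dim probes, at -0.08 ± 0.18 and -0.02 ± 0.13 (SD, n = 4; limma adjusted p = 0.511 and 0.842), neither called.

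By level, then, 3 of the 5 genes had every mutant below every control and 1 had every mutant above, where 10.1% and 12.3% of 23175 probes did so. None of the 5 was called in the test of male minus female, in which 0.0173% of probes were called. The largest such difference was that of Otx2, which averaged -2.34 in females and -2.01 in males, a difference of 0.33 with an SE of 0.16 (limma adjusted p = 0.357). It came from the arrays with the mutant in green, at -2.57 in the female and -1.87 in the male. With the mutant in red the values were -2.12 and -2.15. Each sex had 1 array per dye orientation, and this fit left 1 residual degree of freedom. The other 4 genes differed between the sexes by -0.02 to 0.05. For Otx2 the call depended on the normalization: with each array centred on its median in place of loess, the difference was 0.50 (limma adjusted p = 0.0298). The share of 0.0173% is of the loess fit, and the share with median centring is not given here. That call therefore has no background beside it. Median centring also gave far smaller p-values at nearly the same ratio. For the Otx2 genotype effect the limma adjusted p was 9.21e-17 at -2.17, against 3.55e-05 at -2.18 with loess. The p-values of the 2 normalizations may therefore not be comparable.

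Upstream sequence of Otx2, which fell, and of Emx1, which rose, is shown here because the targeted genes encode T-box factors and the 2 genes moved in opposite directions. Windows of 250 bases before the RefSeq transcription starts (GRCm38.p6) were searched on both strands for the T-box site AGGTGTGA, its core GGTGTG, the homeodomain site TAATTA and the Otx-type site TAATCC, with GGTGTG being also part of AGGTGTGA. RefSeq entries were matched for 4 of the 5 genes, with 7 windows in all, 4 of them for Otx2, and Otx1 was not matched. The first window below belongs to the first start of Otx2, at chr14:48667645-48667894 on the minus strand, and the other to Emx1, at chr6:85187681-85187930 on the plus strand. Capitals mark a motif: TAATTA in Otx2, and CACACC in Emx1, which is GGTGTG on the opposite strand.
Otx2: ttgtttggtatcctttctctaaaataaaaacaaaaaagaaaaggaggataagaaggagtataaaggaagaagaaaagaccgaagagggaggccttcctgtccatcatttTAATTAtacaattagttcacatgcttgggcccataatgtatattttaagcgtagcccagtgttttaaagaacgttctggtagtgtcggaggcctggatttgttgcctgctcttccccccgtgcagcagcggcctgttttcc
Emx1: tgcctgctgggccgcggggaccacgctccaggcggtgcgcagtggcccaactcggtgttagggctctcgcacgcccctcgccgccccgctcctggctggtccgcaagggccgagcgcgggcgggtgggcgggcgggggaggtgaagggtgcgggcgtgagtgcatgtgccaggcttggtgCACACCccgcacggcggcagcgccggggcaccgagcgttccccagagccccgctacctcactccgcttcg

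The TAATTA begins 141 bases before the Otx2 start and the CACACC 70 bases before the Emx1 start. The third Otx2 window held TAATTA 3 times, beginning 234, 174 and 154 bases before its start, and TAATCC on the opposite strand, 211 bases before it. The 60 bases of the probe for the other Otx2 transcript matched this window, from 227 to 168 bases before its start, so this stretch was within an annotated transcript. AGGTGTGA was in 0 of the 7 windows and GGTGTG was in 1, that of Emx1. The windows of Emx2 and Lmx1a held none of the 4 motifs. Of 32851 windows of all genes, 1.12% held AGGTGTGA, 16.3% GGTGTG, 4.84% TAATTA and 6.25% TAATCC. These are matches of letters, not sites of binding.

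The genes nearest in pattern were found among 12813 genes by the root mean square difference of the 4 log2 ratios, 1 probe per gene. For Otx1 these were Gzmn, C1qtnf12 and Sstr1, the last 2 with differences of 0.13 and 0.15. Gzmn, a granzyme gene, was well above background in 0 of 4 mutant samples, so its likeness has no exact value, and its fall was at least 2.55-fold (limma adjusted p = 8.49e-06). For Otx2 they were Gzme, Tnni1 and Wfikkn1, the last 2 with differences of 0.21 and 0.29. Gzme, another granzyme gene, was also well above background in 0 mutant samples, so the same holds for it, and it fell at least 3.77-fold (limma adjusted p = 6.69e-06), while Tnni1, a troponin gene of slow muscle, averaged -2.08 ± 0.26 and Wfikkn1 -1.94 ± 0.17 (SD, n = 4). Nearest to Emx1 were Slc4a1, the anion exchanger of red cells, Prkcb, a protein kinase C gene, and Plagl1, an imprinted zinc finger gene, with means of 1.11, 1.19 and 1.17 and differences of 0.07 to 0.08. Nearest to Lmx1a were Uap1l1, Car12, a carbonic anhydrase gene, and Slc18a2, the vesicular monoamine transporter gene, with means of -0.52, -0.49 and -0.50 and differences of 0.05 for each.

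Related genes were read from the same fit, 1 probe per gene, where the median over 18414 genes log2 ratio was 0.0035. Among other bicoid-type and empty-spiracles relatives, 3 of 8 genes were tested and 1 was called, Gsc (goosecoid), which fell by 0.93 on the log2 scale with an SD of 0.16 over 4 arrays. Among other LIM homeodomain genes, 7 of 11 were tested, 1 was called lower and 1 higher, with a median of 0.02. Isl2, a gene of motor and sensory neurons, averaged -0.93 ± 0.19 and Lhx2, a gene of the eye and forebrain, 0.23 ± 0.12. The call of Lhx2 was lost with the scanner software's ratios (limma adjusted p = 0.0708) and with median centring (limma adjusted p = 0.0591).

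LIM homeodomain proteins act through Ldb adaptors, for which the LIM-only Lmo proteins compete. Of 10 such partner genes tested, 2 were called lower and 1 higher, with a median of 0.07. Lmo4 averaged -0.55 ± 0.10 and its other probe -0.65, and Lmo2, which is also a gene of blood and endothelial cells, averaged 0.58 ± 0.18 (SD, n = 4). Lmo3 averaged -0.65 ± 0.04 but was well above background in only 2 of 4 mutant samples, and the scanner software's ratios gave -1.45. Of 10 partners of Otx and Emx proteins, 1 was called lower and 3 higher, with a median of 0.04. These partners are Groucho-type Tle corepressors and the TALE homeodomain cofactors Pbx and Meis. Meis1 averaged -0.50 ± 0.10, Pbx3 0.25 ± 0.05 and Meis2 0.25 ± 0.09 (SD, n = 4). The call of Pbx3 was lost with the scanner software's ratios (limma adjusted p = 0.0772) and those of Pbx3 and Meis2 with median centring (limma adjusted p = 0.0637 and 0.0677).

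**Figure D3:**
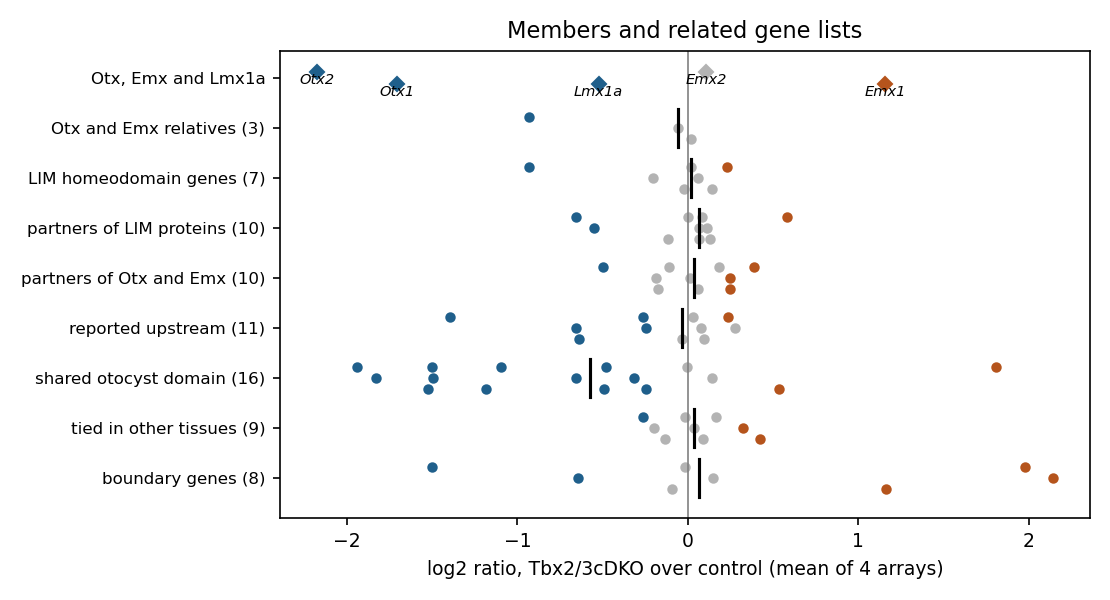
Mean log2 ratio of Tbx2/3cDKO over control on 4 arrays (x axis) for the 5 genes (diamonds) and for each list of related genes (circles, with the number tested in brackets). Blue marks genes called lower, orange those called higher and grey those not called, and the black line is the list median. The list of genes that share the ventral, lateral or non-sensory otocyst, which also holds dorsal genes, lies mostly below 0, with a median of -0.58.

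Of the genes reported upstream of Otx1, Otx2 or Lmx1a in the ear, 11 of 12 were tested, 5 were called lower and 1 higher, and the median was -0.04. Tbx1, a T-box gene of the otocyst, averaged -1.39 ± 0.16, and the growth factor gene Fgf10 -0.66 ± 0.27 (SD, n = 4). Gli1, an effector and target of hedgehog signalling, averaged -0.64 ± 0.24, and the ligand gene Bmp4 -0.25 ± 0.05. The hedgehog ligand gene Shh was well above background on 0 arrays. All 4 genes named here fell.

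Among the 8 lists of related genes, the lowest median was that of genes sharing the ventral, lateral or non-sensory otocyst, of which 16 of 17 were tested, 12 called lower and 2 higher, with a median of -0.58. It was drawn up with earlier results of these samples known, so its direction is not independent evidence. The list also holds genes of the dorsal otocyst, Hmx2 and Gbx2 among them, so its median is not that of ventral or lateral genes alone. Hmx2, a homeobox gene of the vestibular part of the ear, averaged -1.94 ± 0.13 and Gbx2, a homeobox gene of the otocyst and hindbrain, -1.50 ± 0.10. Oc90, a matrix protein of the otoconia, averaged -1.83 ± 0.24. Ntn1, which encodes netrin 1 and acts in canal fusion, rose, at 1.81 ± 0.14 (SD, n = 4 for all).

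Genes tied to Emx2, Otx2 or Lmx1a in hair cells, choroid plexus or roof plate had a median of 0.04: 9 of 16 were tested, 1 was called lower and 2 higher. Dmrt3, a cortical patterning gene, averaged 0.42 ± 0.18. Msx1, a homeobox gene of the roof plate and of mesenchyme, averaged -0.26 ± 0.12 (SD, n = 4). The choroid plexus gene Ttr and the hair cell and rhombic lip gene Atoh1 were well above background on 0 arrays.

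At the border of midbrain and hindbrain Otx2 is known to oppose Gbx2, next to cells that make Fgf8 and the engrailed proteins. Of 11 genes of this boundary 8 were tested, 2 called lower and 3 higher, with a median of 0.06. Gbx2 fell along with Otx2 (above). En2 was well above background in 4 of 4 mutant samples and in 0 of 4 controls, at least 4.20-fold higher (limma adjusted p = 7.04e-06). Such a bound sets the mutant level against the lowest level found well above background. Fgf8 averaged 1.98 ± 0.12 on its brightest probe and 0.46 and 1.37 on the other 2, and Fgf18 averaged 1.16 ± 0.18 (SD, n = 4). En1 and Pax5, which mark the same border, were well above background on 0 arrays in either genotype.

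Markers of the labelled tissue and of its neighbours moved with genotype too. All 15 otic epithelium markers were well above background in every sample, and 11 were called lower and 2 higher, with a median of -0.65. Their summed level, as log2 of the sum of intensities that are not on the log scale, was 17.06 to 17.23 in mutants and 17.86 to 18.02 in controls. The brightest probes weigh most in such a sum. Here that was Oc90, with a mean level of 14.99 in mutants and 16.82 in controls. In whole dissected tissue, fewer cells of a type and less RNA per cell cannot be told apart. Per array the marker median was -0.69, -0.68, -0.64 and -0.60, and Otx1 and Otx2 were below it and Lmx1a above it on each of the 4 arrays.

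Markers of 5 other cell classes rose as Otx1, Otx2 and Lmx1a fell and Emx1 rose. Called higher were 12 of 14 markers of neuroblasts and neurons (median 1.05), 12 of 15 of periotic mesenchyme (0.44), 12 of 12 of endothelium (0.63), 10 of 10 of red cells (1.19) and 7 of 9 of macrophages (0.46), and none of these was called lower. The summed erythroid level was 20.03 to 20.15 in mutants and 18.46 to 19.11 in controls, and the neuronal one 14.67 to 14.96 and 14.03 to 14.16. For mesenchyme the sums were 17.22 to 17.30 in mutants and 16.75 to 16.91 in controls, for endothelium 14.90 to 15.02 and 14.36 to 14.53, and for macrophages 12.68 to 13.08 and 12.35 to 12.49. The sums of the 5 classes, in each of which the brightest probes weigh most, did not overlap between genotypes. This does not set the 5 classes apart, since among the marker lists only the hindbrain roof plate sums overlapped. Among the lists of related genes, only the sums of other LIM homeodomain genes and of partners of Otx and Emx proteins overlapped. The part of these classes in the ratios of the 5 homeobox genes was not tested.

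**Figure D4:**
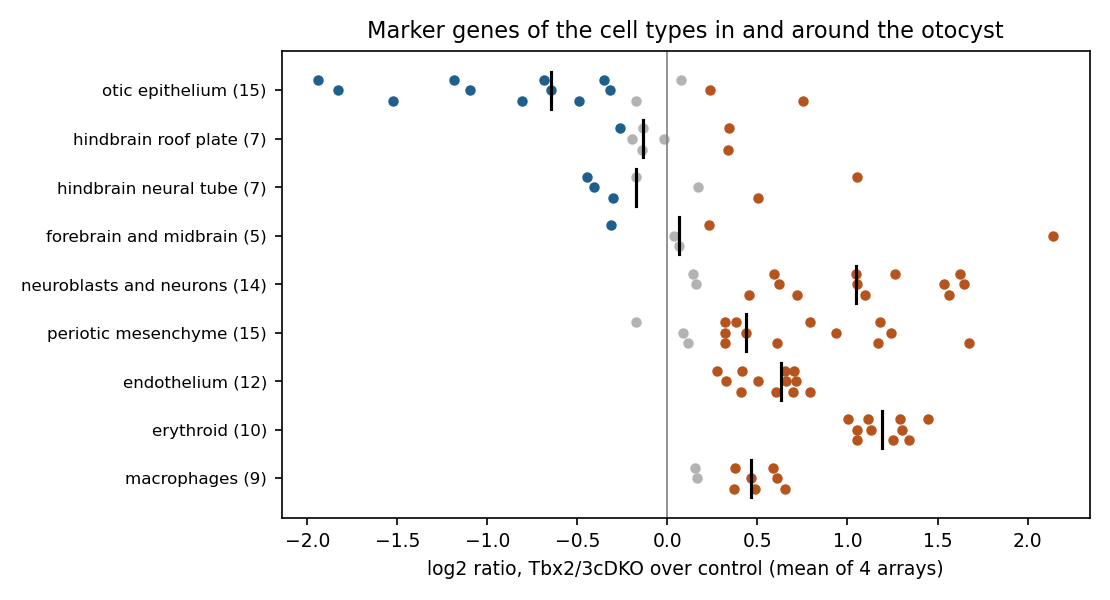
Mean log2 ratio of Tbx2/3cDKO over control on 4 arrays (x axis) for marker genes of each cell class (rows, with the number tested in brackets). Blue marks genes called lower, orange those called higher and grey those not called, and the black line is the list median. The otic epithelium median is -0.65, and the erythroid median, 1.19, is the highest.

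Brain markers were read as well, since these genes are also known from parts of the brain. In the forebrain and midbrain list, where Otx and Emx genes are best known, 5 of 16 markers were tested, 1 called lower and 2 higher, with a median of 0.06, and Six3, Rax, Nkx2-1, Fezf2 and Eomes were well above background on 0 arrays in either genotype. The summed level of this list was 12.30 to 12.52 in mutants and 11.96 to 12.19 in controls. Lhx2 weighed most in it, with a mean level of 12.04 in mutants and 11.80 in controls. En2, which rose most in this list, was dimmer. In the hindbrain roof plate list, where Lmx1a is a defining gene, 7 of 11 were tested, 1 called lower and 2 higher, with a median of -0.14 and overlapping sums of 14.66 to 14.75 in mutants and 14.58 to 14.71 in controls. Gdf7 and Wnt3a, 2 of its defining genes, were well above background on at most 1 and 2 arrays. In the hindbrain neural tube list, 7 of 15 were tested, 3 called lower and 2 higher, with a median of -0.17 and sums of 13.88 to 14.19 in mutants and 14.27 to 14.30 in controls. Irx3 weighed most in these sums, with a mean level of 13.66 in mutants and 13.96 in controls.

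**Figure D5:**
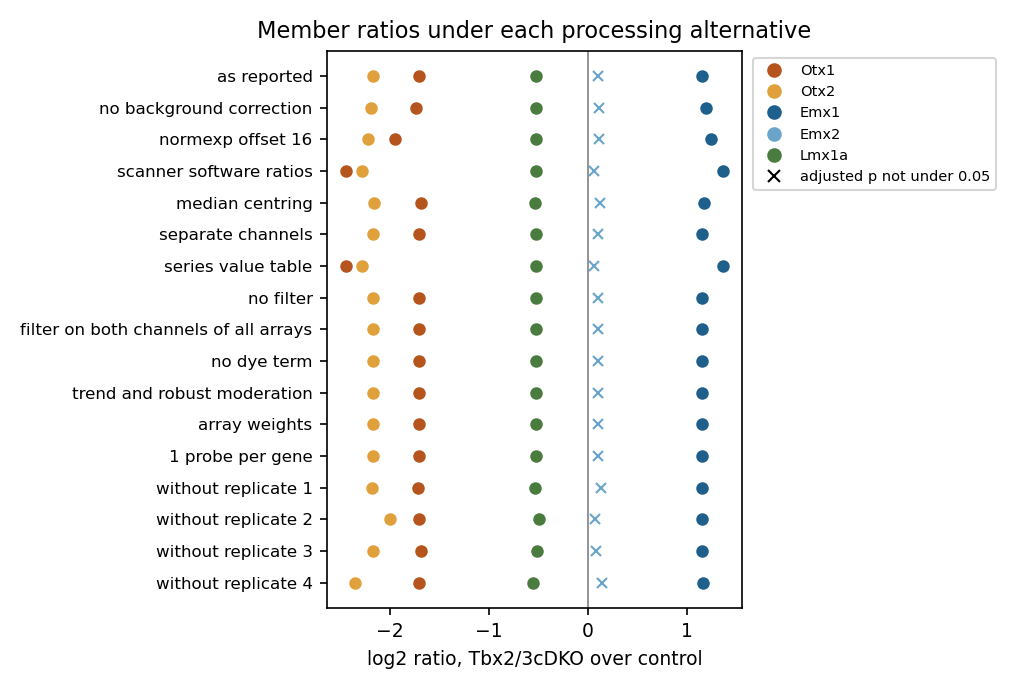
Log2 ratio of Tbx2/3cDKO over control (x axis) for the 5 genes (colours) as reported and under each processing alternative (rows). Circles are values with an adjusted p under 0.05 and crosses are values without. The Otx1 and Otx2 circles change places with the scanner software's ratios, at -2.45 and -2.28, and Emx2 is a cross in every row.

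Across the 16 alternatives the ratio of Otx1 ranged from -2.45 to -1.69, that of Otx2 from -2.35 to -2.0, that of Emx1 from 1.15 to 1.37 and that of Lmx1a from -0.56 to -0.49. These 4 genes kept their direction and stayed called under each of them. Changes of filter, dye term, moderation, weights or probe rule, and a fit of separate channels, returned the main ratio of each gene exactly. Those settings could therefore alter only the call, and they do not test the direction. The authors' series table gave the same ratios for these genes as the scanner software, so it is not a separate check. Direction was tested by the remaining alternatives only. The ratio of Emx2 ranged from 0.06 to 0.15 and was called under none, with limma adjusted p from 0.198 to 0.632.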

How the data were processed

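RNA from the otocysts was amplified and coupled to AlexaFluor555 (green) or AlexaFluor647 (red), per the labels. The arrays shared 1 slide, per the file headers, so slide effects could not be examined. The deposited scanner files give intensity values of each spot and its local background, the log10 of red over green, and flags for spots well above background, from Agilent Feature Extraction (version 10.7.3.1 in the submitters' processing notes). The authors' series table gives mutant over control as a signed fold ratio, and the steps behind it are not given in the sources used here.

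Spot mean signals were corrected with normexp (offset 50) and normalized by loess within arrays, giving control spots weight 0 (limma 3.58.1, statmod 1.5.0, R 4.3.3). Spots marked non-uniform (21 to 33 on an array) were dropped, and 0 spots were saturated. A probe was kept if at least 3 arrays found it well above background in either genotype's channel (23200 probes, 23185 of which could be fitted). The turned log2 ratios were fitted by lmFit and eBayes with a genotype term and a dye intercept. The variance of each probe was drawn partly from all probes, with 4.84 prior beside 2 residual degrees of freedom. SDs are of the 4 turned ratios and so include the dye effect. Channel levels are after loess and Aquantile. In lists each gene is its kept probe of highest mean intensity. Names follow RefSeq tables of GRCm38.p6, and probe coordinates are the files' own (mm9). No mm9 annotation was used here, so exon, intron or UTR is not stated.

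Members and lists were chosen with earlier results of these data known. Named were all 5 genes, Tbx2, Tbx3 and Pax2, up to 4 called genes per list with the smallest adjusted p, and the 3 genes nearest to each called member, clone and provisional names aside. Some genes that met this rule are not reported here. Undetected genes were named after their values were seen. Alternatives covered background correction, normalization, value source, filter, dye term, moderation, weights, probe rule and each array left out. The steps were tested on simulated data. Matplotlib 3.10.9 (Python 3.11.15) drew the figures.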

Additional observations from a re-analysis of the deposited data

How the results depend on the processing

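Leaving out each array in turn gave ratios of -1.72 to -1.69 for Otx1, -2.35 to -2.0 for Otx2, 1.15 to 1.16 for Emx1, 0.07 to 0.15 for Emx2 and -0.56 to -0.49 for Lmx1a, with the same calls. The Otx1 and Emx2 values of male minus female, near 0 throughout, turned positive with median centring, to 0.0021 and 0.089, and that of Emx1 to 0.066. With the scanner software's ratios they turned positive for Emx1 (0.050) and Emx2 (0.041). The Otx2 difference rose from 0.33 to 0.50 with median centring and was then called, with no share of all probes to set beside it. The cause was not tested. Genes called higher fell from 1 to 0 among LIM homeodomain genes with the scanner software's ratios, with median centring and with the series value table, from 1 to 0 among upstream genes with the scanner software's ratios and the series value table, and from 3 to 1 among partners of Otx and Emx proteins with median centring. The share of all probes called ranged from 5.75% to 14.2% lower and from 7.56% to 16.8% higher. The fits of ratios were already paired, since each ratio sets a mutant against the control on its array, and no further pairing was made within this 1 group of ratios. The dim Otx1 and Lmo3 spots limit the size of their folds, which were larger with the scanner software's ratios.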
